A study of Homo sapiens with 66 samples.

Results

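The sites described here are adenosine-to-inosine (A-to-I) editing sites that lie in protein-coding sequence. A site was taken when it lay inside the coding sequence (CDS) of a basic protein-coding GENCODE transcript on GRCh37, on the strand of that transcript, and was covered by at least 90 reads summed over the 9 untreated CTRL libraries. Of the 475962 sites listed for total RNA, 292830 had 90 such reads, and 4042 of these were coding. Taking 1 gene for each site, they lay in 467 genes. Without the read minimum, 4517 sites were coding. The 130 coding sites with 90 to 99 reads had a median editing level of 1.05% in CTRL cells, and the 97 coding sites with 80 to 89 reads, just outside the rule, had a median of 1.16%.

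RNA was sequenced from THP-1 cells, a human monocytic leukemia line, that carried a Cas9 transgene and were nucleofected with guide RNAs (gRNAs). Study 1 used a single STING-deficient clone, so every group of study 1, the controls included, lacked this DNA-sensing adaptor. Its groups received nontarget gRNA (CTRL) or gRNAs against GFP, ADAR, hnRNPC, or ADAR and hnRNPC together, and were harvested after 3, 4, and 5 d, with a further group of CTRL cells that received IFN-α and was harvested on day 4. Each of these 16 groups had 3 replicates. Study 2 used a single clone that was wild type for STING, with other gRNAs, on day 4, and sequenced total and cytosolic RNA of CTRL cells and of cells with ADAR, hnRNPC, or both targeted, as well as nuclear RNA of hnRNPC-targeted cells, with 2 replicates in each of 9 groups. The targeted cells were populations after nucleofection, not knockout clones. GFP gRNA is a second control, as its target does not belong to the human genome.

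Reads counted on genes ranged from 95107690 to 152829008 per library in study 1 and from 49666958 to 73873756 in study 2, and reads on the coding sites from 50145 to 157955 and from 25510 to 45805. A median coding site was covered by 187 CTRL reads, so that 0 edited reads at such a site allow an editing level of up to 1.60%. The myeloid genes LYZ (122 to 428 CPM), CD33 (56.7 to 71.3 CPM), SPI1 (46.0 to 63.1 CPM), and CSF1R (33.2 to 50.1 CPM) were read in every CTRL library, while CD14 was between 0.0991 and 0.502 CPM. Markers of T cells, B cells, epithelial cells, erythroid cells, and fibroblasts (CD3E, MS4A1, EPCAM, HBB, and COL1A1) were at most 0.135 CPM in CTRL libraries. HNRNPC fell from 800 ± 39.9 to 344 ± 24.8 CPM (SD, n = 9) in hnRNPC-targeted cells (log2 fold change −1.22 ± 0.03 [SE], adjusted p = 1.28e-27 by edgeR). ADAR mRNA was 375 ± 17.0 CPM in ADAR-targeted and 407 ± 19.98 CPM in CTRL cells (log2 fold change −0.12 ± 0.05 [SE], adjusted p = 0.0920 by edgeR's quasi-likelihood test), so ADAR mRNA was no check of the labels, and the protein was not analysed here.

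ADAR enzymes bind double-stranded RNA and deaminate adenosine to inosine, which ribosomes and reverse transcriptase read as guanosine. Most editing in human cells falls on inverted Alu repeats in introns and 3′ untranslated regions (UTRs), whereas editing in coding sequence can change an amino acid and is known from a small number of strongly edited recoding sites. Alu sequence can also be spliced into an mRNA as an exon, and hnRNPC, which binds the U-rich stretch of antisense Alu RNA, is known to block such splice sites. The long isoform of ADAR is induced by type I IFN.

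The sequences below are shown because the results turn on these sites. Each line gives the GRCh37 reference on the strand of the transcript, 5′ to 3′, with the edited adenosine as the only capital, 10 bases on either side. The name gives the amino acid before and after editing and its position in the protein of the transcript. The first 7 sites were edited less in ADAR-targeted cells.
CDK13 Q103R (chr7:39990538-39990558, plus strand): ggagggcggcAgaagcggcgt
AP1S3 R151G (chr2:224617575-224617595, minus strand): ccccagaggcAgagattgcag
SLC35A3 S286G (chr1:100490293-100490313, plus strand): gcctctgagtAgctgggattg
DHDDS I188V (chr1:26774856-26774876, plus strand): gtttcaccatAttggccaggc
SRP9 I64M (chr1:225974604-225974624, plus strand): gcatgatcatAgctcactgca
ENSG00000288695 M231V (chr4:56237959-56237979, plus strand): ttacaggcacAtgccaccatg
CGAS M471V (chr6:74134065-74134085, minus strand): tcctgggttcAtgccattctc
The following 4 sites had many G reads with no call in ADAR-targeted cells, and are shown for comparison.
EIF2S3B I357V (chr12:10659560-10659580, plus strand): ggtggggcaaAtacttggtgc
HNRNPA1L3 D99G (chr16:51680014-51680034, plus strand): caaagaccagAtgcccactta
SLFN13 Q689R (chr17:33768232-33768252, minus strand): accatcactcAgagagaaaag
ZNF836 N809S (chr19:52658500-52658520, minus strand): tacgtgtgtaAtgagtgtggc
In none of the first 7 is the base before the edited adenosine a G, and 4 of them have a G after it (CDK13, AP1S3, SLC35A3, and SRP9).

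Editing of most coding sites was low. An editing level is the number of G reads over all reads, summed over the libraries of a group, in percent. In CTRL cells, 3161 coding sites (78.2%) were edited under 1%, 1643 (40.6%) had no edited read, and 96 (2.38%) reached 10%. Over all listed sites with 90 reads, 9.57% reached 10%, and the shares were 12.4% in 3′ UTRs and 8.57% in introns. The mean level of a coding site was 1.39% and the median 0.467%, against 4.55% and 1.18% for the 57600 sites in 3′ UTRs and 3.33% and 0.935% for the 136730 sites in introns. At the depth of a median coding site, levels under 1.60% cannot be told from 0 at a single site.

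Editing would change the amino acid at 2675 coding sites (66.2%), leave it unchanged at 1326 (32.8%), and change a stop codon at 1, and for 40 sites no codon could be read. The most frequent changes were lysine to glutamate (337 sites), lysine to arginine (330), glutamate to glycine (282), and glutamine to arginine (278). The edited adenosine was at the first codon position at 1257 sites, at the second at 1371, and at the third at 1373. Zinc finger genes whose symbols begin with ZNF, which encode a large family of DNA-binding repressors of repeats and genes, held 1493 of the sites (36.9%) in 93 genes. ZNF714 had 107 sites, ZNF493 had 86, and HMGN5, which encodes a nucleosome-binding protein, had 67. The levels in these genes were low, with highest values of 7.34% in ZNF714, 4.14% in ZNF493, and 3.93% in HMGN5. In all, 285 genes had at least 5 sites each and together held 3511 of them.

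ADAR enzymes are known to disfavor a G just before the edited adenosine. A G stood there at 22.1% of coding sites, at 14.8% of all listed sites, and at 28.9% of the 292828 adenosines of the coding sequence examined for comparison. Among the 89 coding sites that were edited less in ADAR-targeted cells in the comparison given later, 2 (2.25%) had a G before the adenosine, and 56.2% had a G after it, against 33.6% of all coding sites and 31.2% of coding adenosines. Over the 26630 listed sites with an A in the reference window that were lower in ADAR-targeted cells, the shares were 5.26% and 43.2%, and no difference between coding and other sites was tested. The nearest other listed site was a median of 7 bases away for a coding site, and 3 bases away for the 89 sites as for all listed sites. These are descriptions of the lists, as a call needs a level high enough to be read.

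The annotation divides the coding sites into 2 kinds that are followed in the comparisons. At 2361 sites, each transcript over the site, among the basic protein-coding transcripts on its strand, was coding there. At the other 1681 sites, another such transcript was noncoding, with an intron at 1244, an intron in one and a 3′ UTR in another at 277, a 3′ UTR at 149, and a 5′ UTR at 11. This transcript could belong to the same gene or to an overlapping gene. The counts do not tell which transcript an edited read came from. Of the sites coding in every transcript, 24 of 2361 reached 10% in CTRL cells, and of the sites that are noncoding in another transcript, 72 of 1681. The coding transcript was the principal one, as the annotation ranks transcripts, at 3078 sites. A sequence of 31 bases around the site with a G in place of the A was found elsewhere in the genome or in annotated transcripts for 615 sites (15.2%), for 9 of the 24, and for 41 of the 72. A read from such a copy looks like an edited read if it is placed at the site.

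ADAR targeting was compared with CTRL to see which coding sites depend on the enzyme. Editing summed over all coding sites lay between 1.73 and 2.05% in the 9 CTRL libraries, with a median of 1.79%, and between 0.873 and 1.26% in the 9 ADAR-targeted libraries, with a median of 1.07%. The ranges did not overlap. Over the sites that are noncoding in another transcript, CTRL libraries lay between 2.68 and 3.23% (median 3.02%) and ADAR-targeted libraries between 1.19 and 1.69% (median 1.40%). Over the sites coding in every transcript, the ranges overlapped, with 0.665 to 1.00% (median 0.924%) in CTRL and 0.594 to 0.906% (median 0.762%) in ADAR-targeted libraries. GFP-targeted libraries were at 2.80 to 3.12% for the first of these kinds, within the CTRL range, and at 0.575 to 1.03% for the second, which reaches past the CTRL range at both ends.

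**Figure D1:**
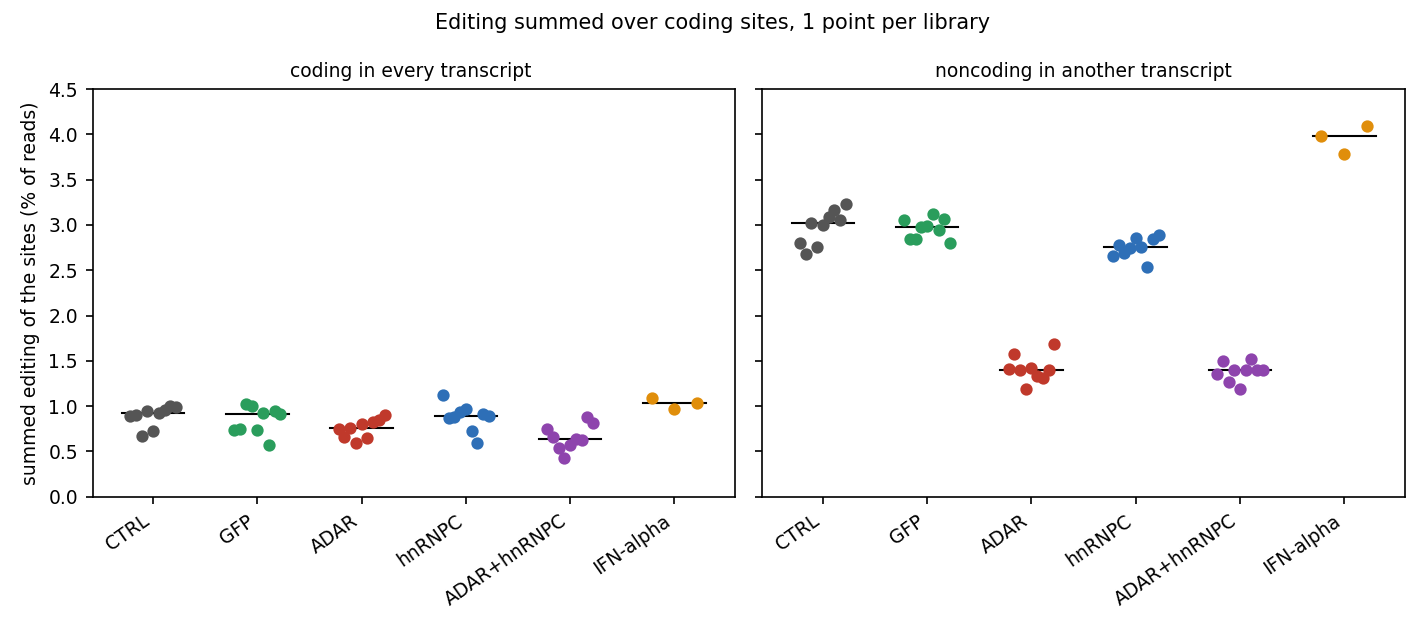
Editing summed over the coding sites in study 1, as percent of reads (y axis), by gRNA group or treatment (x axis), for sites coding in every transcript (left) and sites noncoding in another transcript (right), with a point for each library and a bar for the median of a group. On the right, ADAR-targeted libraries (1.19 to 1.69%) sit below and IFN-α libraries (3.79 to 4.09%) above all CTRL libraries (2.68 to 3.23%), while on the left ADAR-targeted (0.594 to 0.906%) and CTRL libraries (0.665 to 1.00%) overlap.

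Site by site, 89 of 2701 coding sites that could be tested were edited less in ADAR-targeted cells and 0 were edited more (quasi-binomial test over days, adjusted p of at most 0.05). The test gave every site the same dispersion, so its p-values and SEs do not hold the spread of a site's own replicates. Over all sites tested, 11.9% were lower and 0.00789% higher. Of the coding sites, 24 were higher at an unadjusted p under 0.05, and 6 by limma on logits. The 89 sites lay in 47 genes. Their median level was 10.4% in CTRL and 2.17% in ADAR-targeted cells, and their differences ranged from −34.4 to −1.01 percentage points. Of the sites coding in every transcript, 6 of 1485 (0.404%) were lower, and of those noncoding in another transcript, 83 of 1216 (6.83%). The share was highest, 29 of 222 (13.1%), where the other transcripts had both an intron and a 3′ UTR. In principal transcripts 9 of 1946 were lower, and in other transcripts alone 80 of 755 (10.6%). Because a site was listed only if it was edited in at least 1 library with intact ADAR, a lower value in ADAR-targeted cells is favored by the list itself. GFP-targeted libraries were among those with intact ADAR, and in the comparison of GFP with CTRL 2 of 2704 sites were lower and 0 higher, against 0.0021% and 0% of all sites tested, with 36 higher at an unadjusted p under 0.05 and 0 by limma on logits. Both were in HIST2H2AA3, described below.

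The kinds were also set side by side at like starting levels. At CTRL levels from 20 to 50%, the 27 sites that are noncoding in another transcript had medians of 28.4% in CTRL, 27.7% in GFP-targeted, and 10.8% in ADAR-targeted cells, and 22 were lower. The 11 sites coding in every transcript had medians of 28.7, 23.9, and 25.0%, and 1 was lower. At levels from 10 to 20%, 21 of 39 sites of the first kind were lower (medians 14.0 and 4.95%) and 0 of 7 of the second (12.3 and 11.8%). Since CTRL levels set these bins, their medians are a description, and no test was made.

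**Figure D2:**
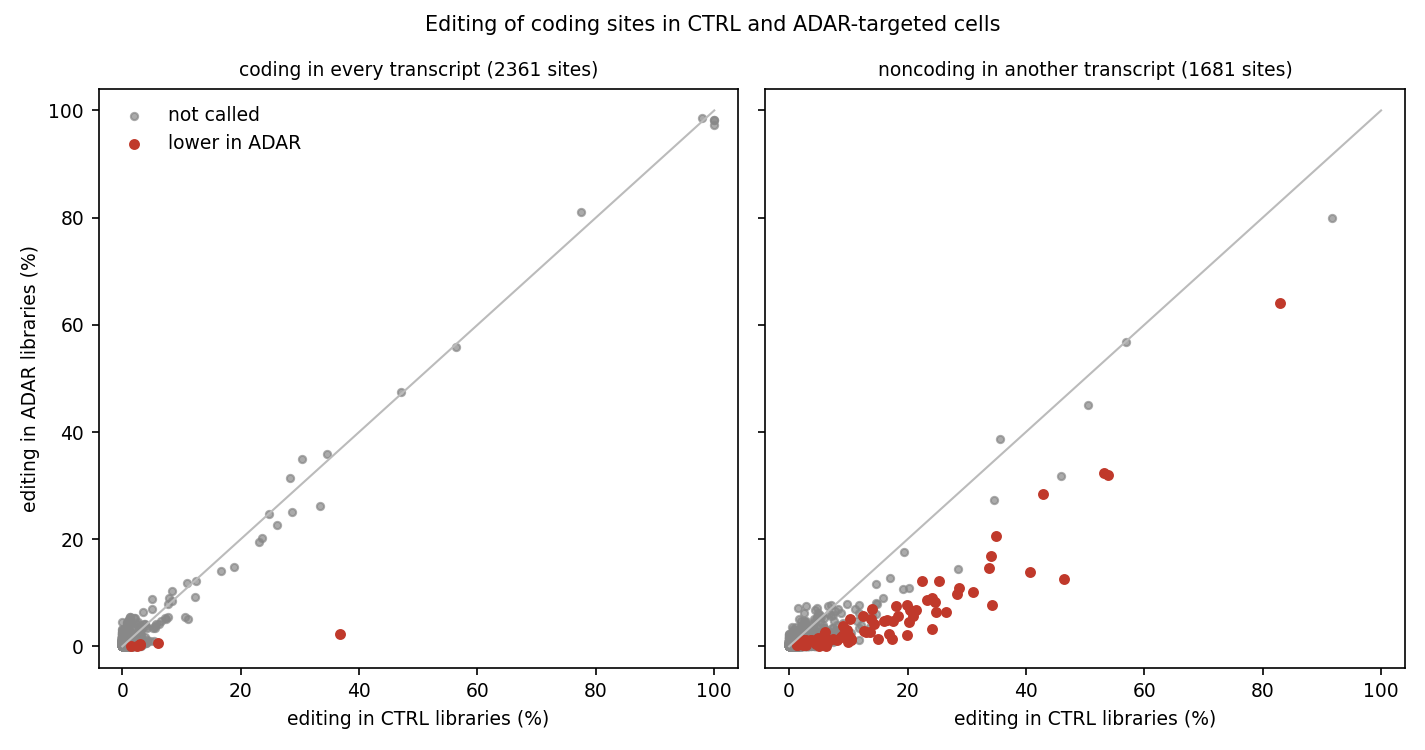
Editing in ADAR-targeted cells (y axis, percent) against CTRL cells (x axis, percent), each summed over 9 libraries, for sites coding in every transcript (left) and sites noncoding in another transcript (right), with a point for each site, red where it was edited less in ADAR-targeted cells, and a line at equal levels. On the left, 1 of the 24 points at 10% or more is red, CDK13 Q103R at 36.7 and 2.31%, and on the right 46 of 72 are red.

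CDK13 Q103R, in the kinase that phosphorylates the tail of RNA polymerase II, had the largest drop of all coding sites by summed levels. It lies at chr7:39990548 in the principal transcript and is coding in every transcript. Its rank before SLC35A3 S286G, described below, was not firm. Leaving out single libraries gave −35.9 to −30.7 points at CDK13 Q103R and −34.8 to −32.7 points at SLC35A3 S286G. With at least 10 reads in a library, editing was 16.7 to 42.6% in 5 CTRL libraries (median 26.7%), 21.4 to 27.8% in 6 GFP-targeted libraries (median 24.3%), and 0 to 4.35% in 7 ADAR-targeted libraries (median 0%). No ADAR-targeted library overlapped the controls. Summed over libraries the levels were 36.7% (65 of 177 reads, 95% Wilson interval 29.97 to 44.04%, for counting error only) in CTRL, 24.9% in GFP-targeted, and 2.31% (4 of 173 reads) in ADAR-targeted cells, a difference of −34.4 ± 4.45 percentage points (SE, adjusted p = 1.54e-07). The value is missing in CTRL replicate 2 of day 4, which was left out. The site was at 40.4% after hnRNPC targeting, at 10.1% after targeting of both, and with IFN-α at 43.6% against 41.3% in CTRL cells of day 4. The other 5 coding sites of CDK13 were between 0.283 and 1.69% in CTRL cells, and none passed the test.

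AP1S3, which encodes a small subunit of the AP-1 clathrin adaptor, held 2 more of the 6 sites coding in every transcript, in a transcript that is not the principal one. AP1S3 R151G was at 3.70 to 8.61% in 8 CTRL libraries (median 5.54%), at 0.862 to 8.94% in 9 GFP-targeted libraries (median 4.55%), and at 0 to 1.64% in 9 ADAR-targeted libraries (median 0.847%). All ADAR-targeted libraries were below all CTRL libraries, though not below the lowest GFP-targeted library. The difference was −5.44 ± 0.764 points (adjusted p = 9.92e-11). AP1S3 residue 158, a nearby synonymous site whose window occurs with a G at 121 other places of the genome, fell from 2.90 to 0.362% (adjusted p = 0.000176). The remaining sites, ZNF91 Q119R, ZNF658 residue 593, and PCCA I270M, had CTRL levels of 2.56, 2.90, and 1.52% and adjusted p from 0.0423 to 0.0473, and all 3 were no longer called when the larger of the site's own and the moderated dispersion was used.

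Of the 89 sites, 80 lay in transcripts other than the principal one. SLC35A3, a Golgi transporter of UDP-N-acetylglucosamine, had 5 such sites among 9 tested, all in a transcript that is not the principal one. SLC35A3 S286G was at 38.3 to 56.1% in CTRL (median 47.6%), 32.6 to 69.6% in GFP-targeted (median 49.0%), and 3.64 to 16.4% in ADAR-targeted libraries (median 13.2%). Here no ADAR-targeted library overlapped either control. The difference was −33.8 ± 2.96 points (adjusted p = 1.66e-26). In the same stretch, SLC35A3 T254A, whose window occurs with a G at 10 other places of the genome, fell from 40.7 to 14.0% and SLC35A3 Q276R from 14.96 to 1.44%.

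DHDDS, the catalytic part of the enzyme that makes dolichol precursors, also had 5 such sites among 13 tested. DHDDS I188V had the highest level of any of the 89, at 70.0 to 89.3% in CTRL libraries (median 84.6%) and 54.8 to 74.1% in ADAR-targeted libraries (median 62.8%), with an overlap of the ranges. Its summed level fell from 83.0 to 64.1% (−18.9 ± 4.26 points, adjusted p = 0.000161). The window around it occurs with a G at 17 other places in the genome. DHDDS residue 205, whose window does not, fell from 34.3 to 7.72% (−26.6 ± 3.73 points, adjusted p = 1.27e-10).

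SRP9, a subunit of the signal recognition particle that itself binds Alu RNA, had the most reads. All 4 of its sites fell. SRP9 I64M was at 31.7 to 38.4% in CTRL libraries (median 33.5%) and 14.7 to 19.2% in ADAR-targeted libraries (median 17.4%), from 5209 and 4644 reads. No library overlapped, and the difference was −17.2 ± 0.926 points (adjusted p = 2.60e-73). SRP9 residue 53 fell from 25.3 to 12.2%, SRP9 S75G from 12.4 to 5.66%, and SRP9 residue 74 from 2.57 to 1.28%. Only the window of I64M occurs with a G elsewhere, at 9 places of the genome.

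Other genes followed with smaller numbers of reads. Like those of SLC35A3, DHDDS, and SRP9, their lower sites are noncoding in another transcript. The edited reads of these sites may thus not come from coding RNA. CGAS, the cytosolic DNA sensor upstream of STING, had 5 of 5 sites lower, with CTRL levels of only 1.28 to 3.66%. ETFA, a mitochondrial electron transfer flavoprotein, had 5 of 16, and ETFA residue 286 went from 53.9 to 32.0%, a call that was lost without ADAR-targeted replicate 3 of day 5 (adjusted p = 0.0796). RHOA, a small GTPase of the cytoskeleton, had 4 of 7, and RHOA K162R went from 14.4 to 4.15%. IL12RB1, a receptor chain for IL-12 and IL-23, had 4 of 11, and IL12RB1 residue 345 went from 34.9 to 20.6%. SMN1 S285G went from 33.7 to 14.6%, in a gene whose reads cannot be told from its near-identical copy.

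**Figure D3:**
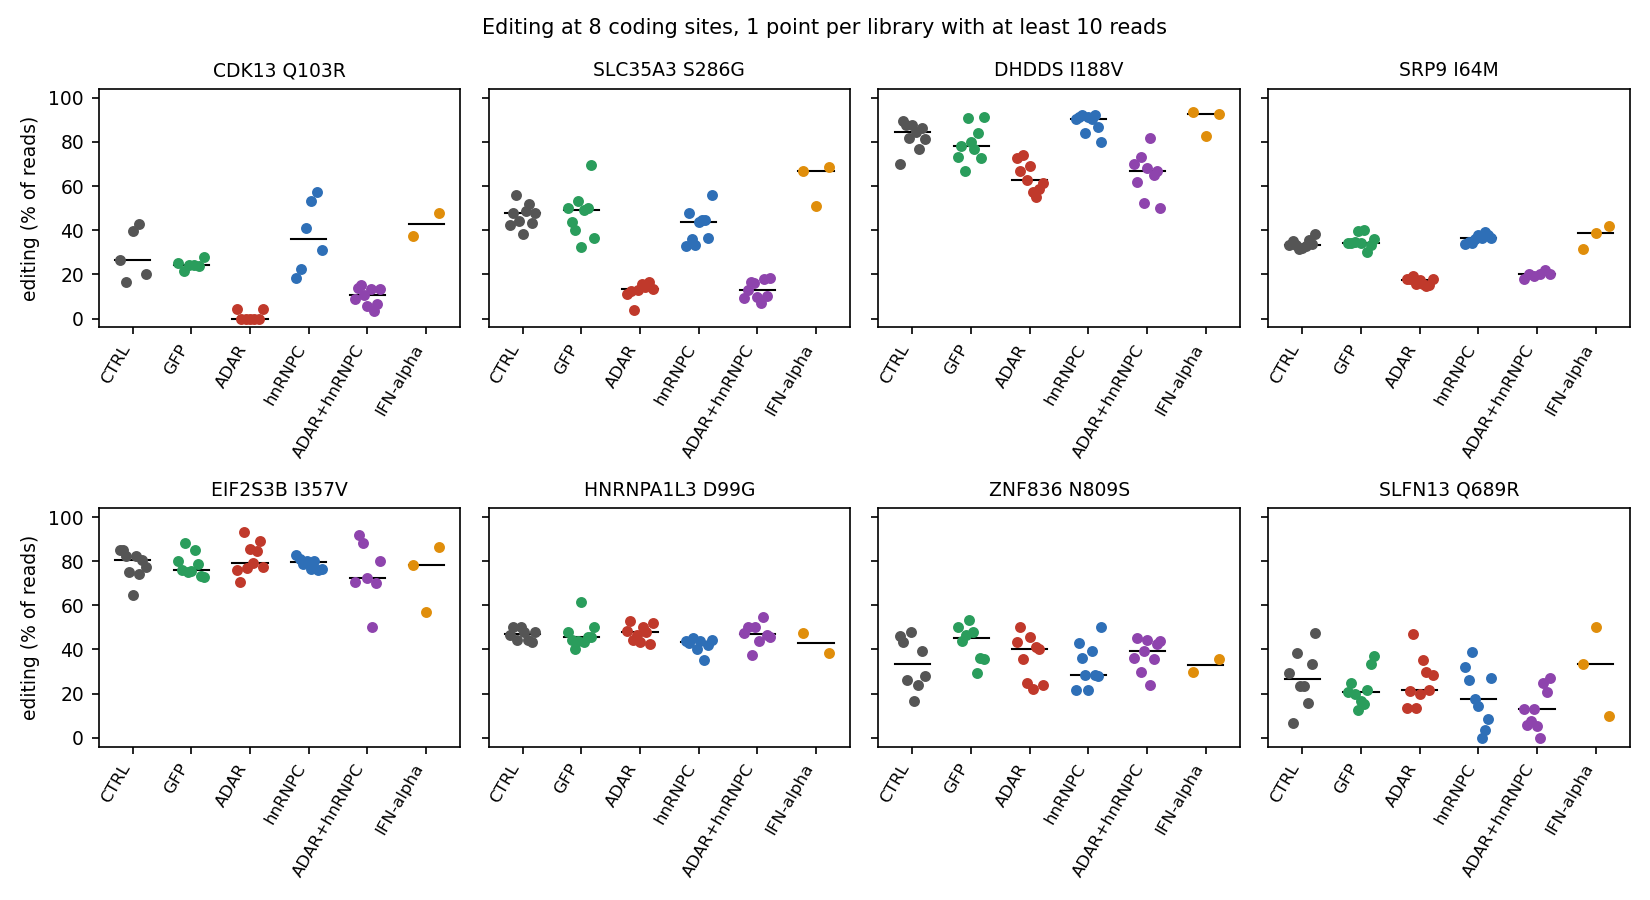
Editing (y axis, percent of reads) at 8 coding sites in study 1, by gRNA group or treatment (x axis), with a point for each library of at least 10 reads and the median as a bar. In the upper row, ADAR-targeted libraries are below the CTRL median at each site, from 0 to 4.35% at CDK13 Q103R and from 54.8 to 74.1% at DHDDS I188V, and in the lower row CTRL and ADAR-targeted libraries overlap at every site, with CTRL medians of 80.8% at EIF2S3B I357V and 26.5% at SLFN13 Q689R.

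The amino acid–changing positions with the highest shares of G reads were mostly not called lower in ADAR-targeted cells. Among the 20 amino acid–changing sites in principal transcripts with the highest CTRL levels, 14.6 to 100%, only CDK13 Q103R was called. EIF2S3B I357V, in a retrogene of a subunit of the translation factor eIF2, was at 64.7 to 85.2% in CTRL (median 80.8%) and 70.6 to 93.3% in ADAR-targeted libraries (median 79.2%). The difference was 3.53 ± 3.96 points, with a 95% interval from −4.24 to 11.3. HNRNPA1L3 D99G was at 43.3 to 50% (median 47.2%) and 42.3 to 52.9% (median 48.1%), and the interval of the difference was −9.34 to 10.2 points. ZNF836 N809S was at 34.5 and 35.9% (interval −9.38 to 12.1 points), and SLFN13 Q689R, in a tRNA-cleaving Schlafen protein, at 28.7 and 25.0% (interval −13.8 to 6.42 points). RGPD4 M669V, at 97.9 and 98.6%, and PPIAL4B H144R, at 100 and 98.2%, had almost no A reads in any group. The first 4 intervals do not reach the loss of CDK13 Q103R, and each includes a loss of a few points.

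Several of these genes belong to families of near-identical copies. The NBPF, GOLGA8, RGPD, SLFN, PPIAL4, RIMBP3, and PABPC genes held 260 coding sites in 19 genes, of which 16 reached 10%, and 0 of 143 tested were lower in ADAR-targeted cells. Of all coding sites tested, 3.30% were lower, and of those coding in every transcript 0.404%, so a count of 0 is close to the latter share. The families were also picked to match steady sites, which partly sets this count, and it is a description. The G-containing window occurred elsewhere for RGPD4 M669V, EIF2S3B I357V, and HNRNPA1L3 D99G, and nowhere else for SLFN13 Q689R, ZNF836 N809S, and PPIAL4B H144R. The ZNF genes, with 1493 sites, had 14 that reached 10% and 15 of 1062 that were lower. Counts of reads in genes with near-identical copies are uncertain, and the part of misplaced reads in the steady sites was not tested.

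The wild-type clone repeated the comparison with other gRNAs. Its table held 1036 of the coding sites, and 842 could be tested. Of these, 95 were lower in ADAR-targeted cells and 3 higher, against 13.6% and 0.0247% of all sites tested. Of sites coding in every transcript, 8 of 328 (2.44%) were lower, and of the others, 87 of 514 (16.9%). The median of the 95 fell from 13.6 to 1.504%. Summed over all coding sites of this table, the CTRL libraries were at 5.62 to 5.84% in total RNA and ADAR-targeted libraries at 2.92 to 2.98%. These levels are not set beside those of study 1, since the lists of sites were made separately. Without ADAR-targeted replicate 1 of cytosolic RNA, 57 sites were called in place of 98.

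Of 754 coding sites tested in both clones, 70 were lower in the STING-deficient clone, 94 in the wild-type clone, and 50 in both, which is 71.4% of the first list and 53.2% of the second. Of the 70, 69 had a lower level in ADAR-targeted cells of the wild-type clone as well. The same overlap over all listed sites was not counted. In both studies a site was listed only if edited in a library with intact ADAR, which favors a lower value in each clone. SLC35A3 S286G was at 45.8 and 42.6% in total and 60.9 and 51.1% in cytosolic RNA of CTRL cells, and at 17.6, 10.3, 13.7, and 16.7% in the same fractions of ADAR-targeted cells (−35.7 ± 4.39 points, adjusted p = 8.29e-14). DHDDS I188V fell from 63.2 to 34.3%. SRP9 I64M fell from 38.4 to 13.0% and AP1S3 residue 158 from 7.22 to 1.02%. ZNF91 H90R, in a zinc finger repressor of young retroelements, was at 26.4 and 4.25% in the wild-type clone (adjusted p = 1.11e-07) and at 11.1 and 5.05% in the STING-deficient clone (adjusted p = 0.152), and whether the clones differ was not tested. RGPD4 M669V was at 98.7 and 95.2%. CDK13 Q103R was not analysed here in the wild-type clone.

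IFN-α treatment was compared with CTRL cells of day 4, as a condition in which ADAR is induced. ADAR mRNA rose from 404 ± 10.6 to 1236 ± 165 CPM (SD, n = 3), a log2 fold change of 1.61 ± 0.08 (edgeR, adjusted p = 7.50e-19). Of 1880 coding sites tested, 30 in 15 genes were edited more and 2 less, against 5.44% and 0.00812% of all sites tested. IFN-α libraries had intact ADAR, so a site could be listed through them. A higher value with IFN-α can thus be favored by the list itself. Of the 30, 26 were among 973 sites that are noncoding in another transcript and 4 among 907 coding in every transcript. The median of the 30 went from 2.89 to 14.0%, and the differences ranged from 2.76 to 35.8 points. Summed over all coding sites, editing was 1.84 ± 0.0926% in CTRL and 2.43 ± 0.0839% in IFN-α libraries (SD, n = 3). The number of calls fell to 21, 17, and 18 without CTRL replicate 1, 2, or 3 of day 4, and the 4 sites coding in every transcript, 3 of AP1S3 and 1 of PYHIN1, were all lost without CTRL replicate 2.

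The largest rise was at ENSG00000288695 M231V, in a gene of chromosome 4 that has no symbol in the annotation, where 7 of 12 sites rose. Its CTRL libraries of day 4 were at 5.17, 6.25, and 10.96%, and its IFN-α libraries at 38.2, 43.5, and 48.6%. The groups were far apart (35.8 ± 4.24 points, adjusted p = 8.47e-15). The same site was at 5.94% over all CTRL libraries and 2.03% in ADAR-targeted cells, and at 25.1 and 1.504% in the wild-type clone. Its window occurs with a G at 420 other places of the genome. In the same gene, S224G rose from 9.82 to 39.5% and residue 207 from 29.9 to 56.3%.

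NOP14 I779V, in a gene for ribosome assembly, was at 4.95, 6.17, and 7.49% in CTRL and 27.4, 25.2, and 24.8% in IFN-α libraries (19.7 ± 1.82 points, adjusted p = 1.42e-24). CGAS M471V was at 1.72, 3.20, and 3.99% and at 15.2, 12.9, and 17.2% (11.8 ± 1.22 points, adjusted p = 1.95e-19). All IFN-α libraries were above all CTRL libraries at both sites, and all 5 CGAS sites rose, to between 3.81 and 14.7%. Another transcript is noncoding at each of these sites, as at the ENSG00000288695 and SLC35A3 sites that rose. The counts thus do not tell whether the edited reads were coding. CGAS mRNA was 103 ± 8.34 CPM in CTRL and 110 ± 4.11 CPM in IFN-α libraries (adjusted p = 0.431).

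SLC35A3 had 4 sites that rose. SLC35A3 Q276R was at 13.6, 16.9, and 16.4% in CTRL and 38.1, 53.6, and 44.4% in IFN-α libraries (30.7 ± 5.45 points, adjusted p = 1.52e-06). The call of SLC35A3 T254A was lost without CTRL replicate 3 or IFN-α replicate 2 (adjusted p = 0.0841 and 0.0763). SLC35A3 S286G, already at 43.9% in CTRL cells of day 4, was at 61.2% with IFN-α (17.2 ± 6.10 points, adjusted p = 0.0748). AP1S3 residue 158 was at 2.84 and 10.2% (7.33 ± 1.98 points, adjusted p = 0.00643), a call that was lost without CTRL replicate 2 or IFN-α replicate 3. SRP9 residue 53, with values in 2 libraries of each group, rose from 23.1 to 33.2% (adjusted p = 0.00124), while SRP9 I64M was at 32.0 and 36.9% (adjusted p = 0.108) and SRP9 S75G at 12.8 and 13.5% (adjusted p = 0.714). DHDDS I188V was at 84.7 and 88.1% (adjusted p = 0.731).

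**Figure D4:**
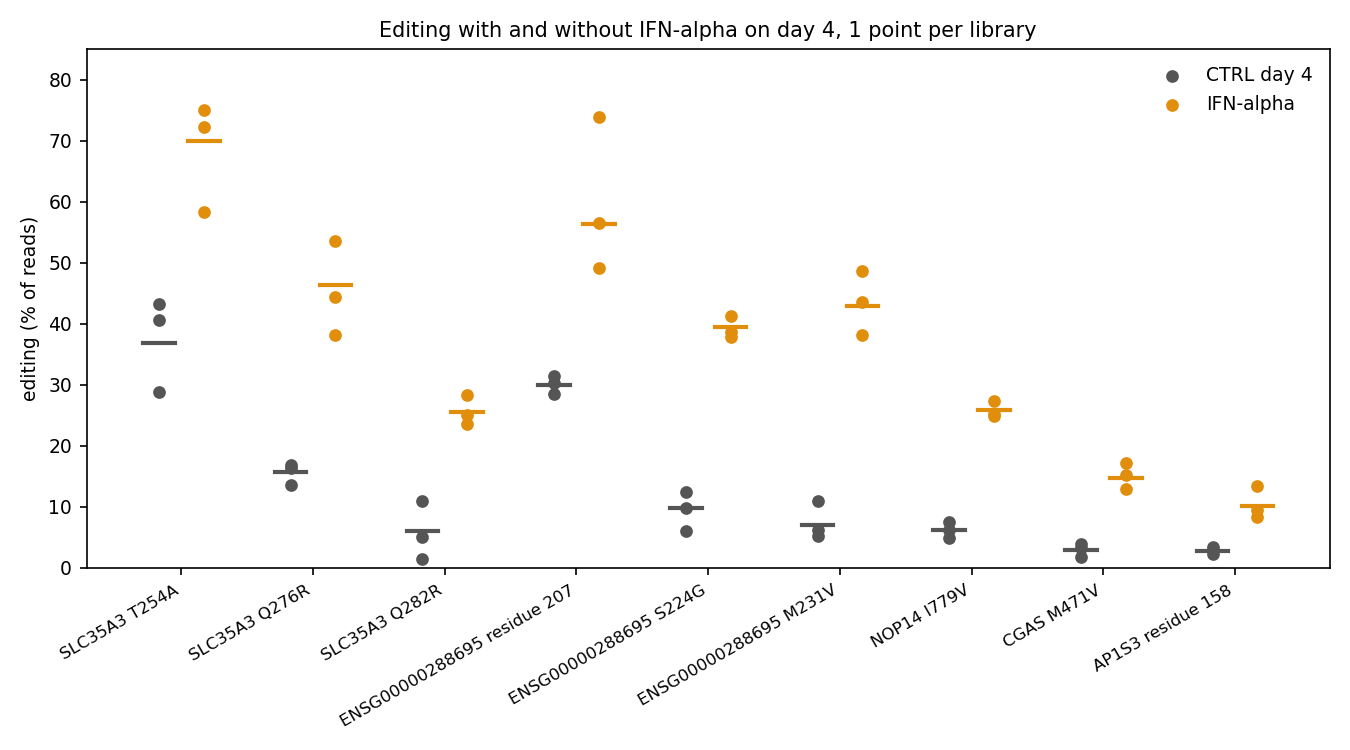
Editing (y axis, percent of reads) at 9 coding sites called higher with IFN-α, in CTRL cells of day 4 and CTRL cells with IFN-α (x axis), with a point for each library of at least 10 reads and a bar for the level summed over libraries. At each site the IFN-α libraries lie above the CTRL libraries, as at ENSG00000288695 M231V (38.2 to 48.6% against 5.17 to 10.96%).

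PYHIN1 K40R, in an IFN-inducible gene for a DNA-binding protein, had 0 edited of 91 CTRL reads of day 4 and 8 of 70 reads with IFN-α (11.4%, adjusted p = 0.0331). This call was lost without any one of the 3 CTRL replicates (adjusted p from 0.130 to 0.2196) and without IFN-α replicate 1, when the difference was 6.52 points (adjusted p = 0.159). It also was at 7.95% in ADAR+hnRNPC-targeted cells (24 of 302 reads) against 0 of 280 reads over all CTRL libraries. The 2 sites that were lower with IFN-α, HIST2H2AA3 I88V and residue 93, were the same sites that were lower in GFP-targeted cells. HIST2H2AA3 I88V lies in a histone H2A gene with a near-identical copy, and its 8 CTRL libraries ranged from 0.885 to 60.7%. Its differences from CTRL in GFP-targeted, hnRNPC-targeted, and IFN-α–treated cells were no longer called when the site's own dispersion was used. Without CTRL replicate 3 of day 3, its difference in hnRNPC-targeted cells was −26.7 in place of −14.7 points, and that of residue 93 was −23.0 in place of −12.6 points.

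hnRNPC targeting was compared with CTRL because hnRNPC keeps Alu exons out of mRNAs. Editing of coding sites changed at few positions. Of 3595 sites tested, 6 were lower and 2 higher, against 0.0509% and 0.278% of all sites tested. With the replicate number as a block, 9 were lower and 0 higher. CGAS M471V was at 1.72 to 5.47% in 8 CTRL libraries (median 3.46%) and at 1.13 to 2.65% in 9 hnRNPC-targeted libraries (median 1.68%), with overlapping ranges (−1.87 ± 0.384 points, adjusted p = 0.000636). WDR6 K41R went from 6.33 to 1.00% (adjusted p = 0.0198) and CHFR E135G, in a mitotic checkpoint ubiquitin ligase, from 4.59 to 0.722% (adjusted p = 0.0101). The WDR6 call was lost without any one of 4 libraries, CTRL replicate 1 of day 3, CTRL replicate 2 of day 4, hnRNPC-targeted replicate 2 of day 3, or hnRNPC-targeted replicate 1 of day 5 (adjusted p from 0.0518 to 0.128). The CHFR call was lost without CTRL replicate 1 of day 4 (adjusted p = 0.0613) or of day 5, when the difference was −2.42 in place of −3.87 points (adjusted p = 0.420). The others were NSMCE4A S309G and both HIST2H2AA3 sites. The 2 higher sites, C19orf25 E44G (20.4 and 36.5%) and ZNF69 residue 223 (2.01 and 18.4%), and the 3 lower sites just named were lost with the larger dispersion, which left 3. Under the replicate block the adjusted p of the 2 higher sites was 0.128 for C19orf25 E44G and 0.207 for ZNF69 residue 223. Without hnRNPC-targeted replicate 3 of day 3, the difference of ZNF69 residue 223 was 5.68 in place of 16.4 points (adjusted p = 0.726). C19orf25 E44G and NSMCE4A S309G also lost their calls when single libraries of either group were left out (adjusted p of up to 0.278 and 0.160).

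The number of reads on the sites was compared as well. This test has another scale and threshold, so its counts are not set against those of editing. Reads at a site were compared as abundance, with a change of at least 1 on the log2 scale, in either direction, as a threshold. Of the 4042 coding sites, 194 gained reads in hnRNPC-targeted cells and 68 lost reads, which is 4.80 and 1.68%, against 2.5% and 3.76% of all sites tested. The rule of 90 reads used the CTRL libraries that are the reference here, so sites with few reads in CTRL and more after targeting were left out beforehand, and these counts are a description of the sites that were kept. With a minimum of 30 reads, 307 of 4442 coding sites gained and 73 lost reads, and over all 459772 sites 23201 gained and 12870 lost reads, so the direction in which more of all sites moved depends on the minimum. It also turned without CTRL replicate 1 of day 4, with 9911 of all sites higher and 7786 lower, and 230 and 61 of the coding sites. Of sites that are intronic in another transcript, 149 of 1244 (11.98%) gained reads, and of sites coding in every transcript, 20 of 2361 gained and 55 lost reads. Sites of a gene are not independent, since 1 read can cover several of them. Leaving out hnRNPC-targeted replicate 1 of day 5 gave 146 sites with fewer reads.

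**Figure D5:**
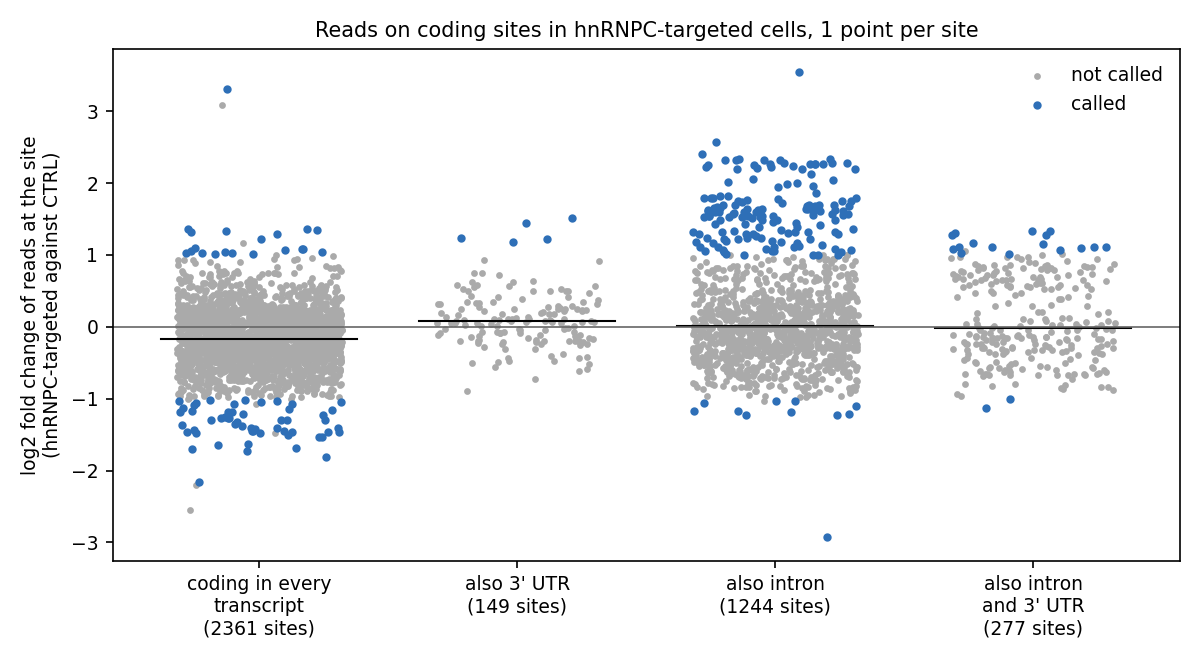
Log2 fold change of reads at coding sites in hnRNPC-targeted against CTRL cells (y axis), by what other protein-coding transcripts have at the site (x axis, without the 11 sites in a 5′ UTR), with a point for each site, blue where it was called, and a bar for the median of its kind. Blue points above 1 are most numerous among sites that are intronic in another transcript (149 of 1244), and blue points below −1 among sites coding in every transcript (55 of 2361).

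Several genes gained reads at all of their coding sites. All 13 sites of NFS1, a mitochondrial cysteine desulfurase, gained reads with a median log2 fold change of 1.60. All 11 sites of RNASEH2B, a subunit of RNase H2, which removes RNA from RNA–DNA hybrids, had a median of 2.26, and all 10 sites of CHFR a median of 2.29. SEPSECS (10 of 10), TMEM230 (9 of 9), and GEMIN6 (9 of 9) had medians of 1.63, 1.70, and 1.54. In ZNF714, 14 of 107 sites gained reads. The expression of the CHFR gene as a whole was 86.6 ± 8.13 CPM in hnRNPC-targeted and 80.2 ± 5.06 CPM in CTRL cells (log2 fold change 0.11 ± 0.04). Among sites that lost reads, all 18 of ZNF738 had a median of −1.496, while counts on the ZNF738 gene rose from 12.1 ± 1.06 to 27.5 ± 2.96 CPM (log2 fold change 1.19 ± 0.07, adjusted p = 7.70e-18). In bulk RNA, such counts do not separate more RNA of a transcript from a change in which transcript is made.

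CHFR S161G is a site that gained reads while no change in its editing was called. Its coverage rose by a log2 fold change of 2.02, from 228 CTRL to 1060 hnRNPC-targeted reads, and its level was 15.8% in CTRL and 15.5% after hnRNPC targeting (−0.318 ± 2.77 points, adjusted p = 0.925). With both targeted, it was at 5.27% from 1367 reads (−10.5 ± 1.88 points against CTRL, adjusted p = 1.97e-06). In ADAR-targeted cells, with 212 reads, it was at 8.96% (adjusted p = 0.182). Of the 10 CHFR sites, 1 was lower in ADAR-targeted and 5 in ADAR+hnRNPC-targeted cells, where the reads were several times as many.

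Combined targeting gave counts close to those of ADAR targeting. Of 2776 sites tested against CTRL, 103 were lower and 4 higher, against 6.32% and 0.0642% of all sites tested. Against hnRNPC-targeted cells, 85 of 2808 were lower and 0 higher, against 8.36% and 0.00948%, with 19 higher at an unadjusted p under 0.05 and 4 by limma on logits. These comparisons share control or targeted libraries with those above, so their values are given side by side and not as independent results. SRP9 I64M was at 36.2% after hnRNPC targeting and 20.03% after targeting of both, next to 34.0% in CTRL and 16.9% in ADAR-targeted cells. SMN1 S285G was at 21.2 and 8.10%, next to 33.7 and 14.6%, and its coverage rose with hnRNPC targeting by a log2 fold change of 1.35. SLFN13 Q689R, I881V, and R682G were lower in ADAR+hnRNPC-targeted cells than in CTRL, as I881V at 13.4 against 26.1%, and not called in ADAR-targeted cells, where I881V was at 22.6%. Whether the 2 comparisons differ was not tested. These SLFN13 calls were lost with the larger dispersion. ADAR mRNA in ADAR+hnRNPC-targeted cells ranged from 344 to 1509 CPM over its 9 libraries, and its part in the editing values was not tested.

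Cytosolic RNA was compared with total RNA in the wild-type clone over all 4 gRNA groups, since exported mRNA is the form that is translated. Of 935 coding sites tested, 4 were edited more and 1 less in cytosolic RNA, against 0.297% and 0.0148% of all sites tested. Of the 4, 3 were neighbors in SLC3A2, the heavy chain of amino acid transporters. SLC3A2 H75R was at 10.0% in cytosolic RNA (17 of 170 reads) and 0.357% in total RNA (2 of 561 reads). None of the 5 calls held when the larger dispersion was used. Editing summed over all coding sites was 5.77 to 6.14% in cytosolic and 5.62 to 5.84% in total RNA of CTRL cells.

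Among genes with known recoding sites, few were covered. Of a list of 36 genes with described recoding sites, 3 had coding sites in this set, SRP9, CDK13, and AZIN1, with 16 sites in all. The 6 sites of AZIN1, which encodes an inhibitor of the degradation of ornithine decarboxylase, were at 0 to 4.71% in CTRL cells, in a transcript that is not the principal one, and none passed the test in ADAR-targeted cells. The list holds genes and not positions. Whether the AZIN1 sites include a described recoding site was not checked, so their values do not speak to such a site. The remaining genes of the list had no site that met the rule.

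In expression, the genes that hold the sites were called in shares close to those of all genes. Counting every gene with coding sequence at a site, as 97 sites lay in more than 1 gene, there were 474 host genes, of which 405 could be tested. With the same threshold of 1 on the log2 scale, 0 were called in ADAR-targeted cells, against 0.0986% of all 13187 genes. After hnRNPC targeting 11 were called (2.72%, against 2.42% of all genes), and with both targeted 24 (5.93%, against 4.78%). With IFN-α 3 were called (0.741%, against 1.32%), and in GFP-targeted cells 0 (against 0.0227%). Both counts of 0 were also 0 at an unadjusted p under 0.05 and by DESeq2. The 3 with IFN-α were OAS1, a sensor of double-stranded RNA (log2 fold change 5.73 ± 0.22), PSME2, and FBXO15. By level, SRP9 was at 534 ± 42.5 CPM in CTRL, 493 ± 32.4 CPM in ADAR-targeted, and 404 ± 62.6 CPM in hnRNPC-targeted cells (SD, n = 9). SLC35A3 was at 71.6 ± 4.57, 67.3 ± 3.84, and 72.3 ± 7.45 CPM in the same groups. Of 16 tested genes that encode editing enzymes or proteins known to modulate them, ADAR with IFN-α was the single call in the 5 comparisons. Log2 fold changes of these 16 ranged from −0.12 to 0.11 in ADAR-targeted cells and from −0.37 to 0.20 in hnRNPC-targeted cells. ADARB1, the second catalytically active ADAR, was at 5.08 ± 0.295 CPM in CTRL and 5.33 ± 0.549 CPM in ADAR-targeted cells (adjusted p = 0.557).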

How the data were processed

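Editing sites and gene expression were measured by RNA sequencing in 66 libraries, 48 of study 1 and 18 of study 2. Per the study's methods, the authors aligned reads to GRCh37 with STAR (version 2.5.4a in the submitters' processing notes), called editing sites with SAILOR, excluded genomic variants of the clone, and kept sites that were edited in at least 1 library with intact ADAR. They then counted bases again at each listed site after removing duplicates, with other mismatches added to the reference base. A last filter of the study asked for at least 10 reads and 5% editing in every sample of a treatment, 10% in 2 of them, and clusters of sites. Of the 4042 coding sites described here, 51, 57, and 73 met these reads and levels in CTRL cells of day 3, 4, and 5. Most of the coding sites thus did not pass that filter in CTRL cells. The deposited tables hold, per the file headers, counts of edited (G) and total reads for each site and library, and featureCounts read counts for each gene. Cells left empty by the authors were treated as no reads, and that library was left out at that site. This was so in at least 1 library at 270 coding sites (6.68%) of study 1 and 152 (14.7%) of study 2.

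Coding sequence was taken from GENCODE release 44 mapped to GRCh37. A site was tested when the compared libraries held at least 1 edited and 1 unedited read, with a quasi-binomial score test stratified by day, or by fraction or gRNA group in study 2. Its dispersion was moderated with limma (version 3.58.1, squeezeVar) and not allowed below 1. The prior had infinite degrees of freedom, so every site of a study got the same dispersion, 1.10 in study 1 and 1.07 in study 2. The spread of a site's own replicates did not enter its main p-value or SE, which are close to the counting error of reads. P-values were adjusted by Benjamini-Hochberg over all sites with 90 CTRL reads (40 in study 2), and sites were called at an adjusted p of at most 0.05. Reads at sites and genes were tested with the quasi-likelihood test of edgeR (version 4.0.16, R version 4.3.3), calling changes of at least 1 on the log2 scale in either direction with, for genes, an average log2 CPM of at least 0.5. Tests were two-sided. They were also run on simulated data with known changes. The simulated editing counts had no spread between libraries beyond counting error, so that run cannot show how the editing test behaves with such spread. Windows of 31 bases with a G at the site were searched in the reference genome and transcripts. Groups came from the labels. The study describes replicates as independent experiments, but the labels do not say that a replicate number marks 1 experiment, so the main tests have no replicate block. Study 1 and study 2 were tested within their own tables.

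The coding sites and gene lists were chosen with earlier results of these data known. Named sites were the 20 amino acid–changing sites in principal transcripts with the highest CTRL editing, the 10 called sites with the largest difference in 4 comparisons (ADAR, hnRNPC, IFN-α, and ADAR in the wild-type clone), and sites in a list of 36 recoding genes. Genes with at least 5 sites and 17 editing factors were named as well. Another 31 sites were added after their values were seen. Alternatives were other coverage minimums, dispersions, strata, and controls, limma on logits, DESeq2 (version 1.42.0), a replicate block, single days, and leaving out each library. RepeatMasker annotation was not used here.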

Additional observations from a re-analysis of the deposited data

Results flagged for a closer look

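Nuclear RNA of hnRNPC-targeted cells of the wild-type clone was the only group that entered no comparison, and its coding sites also carried edited reads. Summed over the coding sites, editing was 5.61% in nuclear RNA (2 libraries, 5.46 and 5.76%), 5.50 to 5.77% in total RNA, and 5.85 to 6.55% in cytosolic RNA of the same cells. It was selected because it lies outside the comparisons and is above the limit that a count of 0 allows. The range of the nuclear libraries overlapped that of total RNA and lay below that of cytosolic RNA, and no test was made with 2 libraries in each group.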

How the results depend on the processing

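Counts of called coding sites depended on the restriction to principal transcripts and on how the spread was estimated. With principal transcripts alone, 9 sites were called in ADAR against CTRL in place of 89, 3 in hnRNPC against CTRL in place of 8, 19 in ADAR+hnRNPC against CTRL in place of 107, 12 in ADAR+hnRNPC against hnRNPC in place of 85, 12 with IFN-α in place of 32, 11 in ADAR of the wild-type clone in place of 98, and 2 in cytosolic against total RNA in place of 5, as fewer sites remained. With an unmoderated dispersion, the counts were 64 in ADAR, 1 in hnRNPC, 64 in ADAR+hnRNPC against CTRL, and 60 in ADAR+hnRNPC against hnRNPC. They were 16 with IFN-α, 0 in GFP (in place of 2), 27 in ADAR of the wild-type clone, and 0 in cytosolic RNA. With the larger of own and moderated dispersion, an alternative chosen after seeing the data, they were 3, 71, 0, 57, and 0 in hnRNPC, ADAR+hnRNPC, GFP, ADAR of the wild-type clone, and cytosolic RNA. Under the same setting they were 69 in ADAR, 65 in ADAR+hnRNPC against hnRNPC, and 25 with IFN-α. With limma on logits, they were 110 in hnRNPC, 431 in ADAR+hnRNPC, 6 with IFN-α, 0 in GFP, and 16 in cytosolic RNA. The cause was not tested.

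With at least 10 reads in every library, 3 sites were called in hnRNPC, 71 in ADAR+hnRNPC, 0 in GFP, and 2 in cytosolic RNA, and without sites that have empty values 4 in hnRNPC and 0 in GFP. A difference of at least 5 points left 57 in ADAR+hnRNPC against CTRL and 47 against hnRNPC. A minimum of 300 reads left 66 in ADAR+hnRNPC, and of 150 reads 61 in ADAR and 1 in cytosolic RNA of the wild-type clone. On days 3, 4, and 5 alone, with fewer libraries, the counts were 17, 29, and 25 in ADAR, 1, 3, and 2 in hnRNPC, and 23, 39, and 25 in ADAR+hnRNPC.

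Leaving out a library gave 76 to 90 calls in ADAR, 5 to 9 in hnRNPC, 88 to 105 in ADAR+hnRNPC against CTRL and 71 to 90 against hnRNPC, 17 to 33 with IFN-α, 2 to 2 in GFP, 57 to 96 in ADAR and 3 to 6 in cytosolic RNA of the wild-type clone, and 258 to 312 for coverage. Of the sites coding in every transcript that were lower in ADAR-targeted cells, 3 to 8 were called, with 3 without ADAR replicate 2 of day 5. Counts of host genes did not change by more than 1.5 times under any alternative.

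Of 4310 refits for named sites, 8 reversed. HIST2H2AA3 I88V was at 10.5 points for ADAR with GFP as control, and for hnRNPC at 0.0654 with GFP as control and 1.47 on day 3. HIST2H2AA3 residue 93 was at 10.03 for ADAR with GFP as control, 12.1 for ADAR on day 3, and 22.9 for hnRNPC on day 3. ZNF69 residue 223 was at −1.41 for hnRNPC on day 4, and CHFR residue 160 at 0.617 for ADAR+hnRNPC on day 3.

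The labels do not say that a replicate number marks a shared experiment, and the check left this unsettled, since a pairing was taken as given only if every same-numbered pair correlated above 0.1. Most did. Same-numbered samples correlated above 0.1 in 82 of 105 pairs of study 1 and 20 of 24 of study 2, and best with their own number in 80 and 22. With a replicate block, the counts were 90 in ADAR (88 lower, 2 higher), 9 in hnRNPC (9 lower, 0 higher in place of 6 and 2), 101 and 83 in ADAR+hnRNPC, 33 with IFN-α, 2 in GFP, 102 in ADAR and 4 in cytosolic RNA of the wild-type clone (0 lower, 4 higher in place of 1 and 4), 264 for coverage, and 0, 11, 24, 3, and 0 host genes in ADAR, hnRNPC, ADAR+hnRNPC, IFN-α, and GFP. Among named sites, the block also ended the calls of ZNF714 K413R with IFN-α (adjusted p = 0.139) and AP1S3 R151G in ADAR+hnRNPC (0.107). It added lower calls in ADAR at HIST2H2AA3 I88V, HIST2H2AA3 residue 93, and ETFA residue 289 (3.46e-06, 0.0145, and 0.0421). Depth limits low sites most. At 90 reads, 0 edited reads allow up to 3.33%.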
